A study of Rattus norvegicus with 6 samples.

Results

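Activity-regulated immediate early genes were measured in cultured rat retinal ganglion cell neurons (RGCs), the output neurons of the retina, with and without a synapse-inducing protein. The set was defined by name, as Fos, Fosb, Junb, Egr1, Egr2, Egr4, Nr4a1, Nr4a3, Arc and Npas4, and every probe set whose only gene symbol is one of these was taken. On these Affymetrix rat genome arrays each transcript is read by a set of short oligonucleotides, its probe set, and several probe sets can stand for 1 gene. Of the 10 genes, 9 had such a probe set and Npas4 was not measured. They have 14 probe sets in all, of 31042 on the array, which name 14217 genes. The rule uses names and no measured value, but the members were chosen with earlier results of these data known.

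The 6 arrays form 3 groups of 2. In Alone, RGCs received no added protein. In Gpc4, glypican 4, a heparan sulfate proteoglycan that astrocytes secrete and that induces active synapses, was added for 12 hours. In TSP1, thrombospondin 1, an astrocyte protein that induces structurally complete but silent synapses, was added for 12 hours. The cells of all groups came from Sprague Dawley rats of postnatal day 6 per the labels and had been 12 days in culture before treatment. They were purified by immunopanning, in which lectin-coated dishes first remove microglia and fibroblasts and an antibody dish then holds the RGCs. The medium of all groups held the growth factors BDNF and CNTF, and the culture medium given in the methods also holds insulin and forskolin, an activator of adenylyl cyclase. The Gpc4 protein carried a His tag and was secreted by transfected HEK293 cells, a line from human embryonic kidney, and no mock purification is named for Alone. Each array carried RNA pooled from a pair of wells, and the experiment was done on 2 separate cultures. The replicate number was taken to mark the culture, so each group has 1 array from each culture. The p-values of the main fit rest on the spread between the 2 arrays of a group, pooled over the 3 groups and moderated over all probe sets. The values are log2 expression values as deposited, and the median of an array lay between 5.96 and 5.99. No detection call was given, so values below these medians may be at background, and a difference there can understate the change in mRNA. RNA came from whole cultures, in which fewer cells of a type and less RNA per cell cannot be told apart. All 9 measured markers of RGCs lay above the array median on all 6 arrays.

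Immediate early genes are transcribed within minutes of a stimulus, without new protein synthesis, and their mRNAs are usually short-lived. In neurons, calcium entry and growth factor receptors act through kinases on transcription factors that already sit on the promoters, chiefly SRF with its ternary complex partners at the CArG box and CREB at the cAMP response element (CRE). Most of the products are transcription factors that set a second, slower wave of genes. Fos, Fosb and Junb encode subunits of AP-1, Egr1, Egr2 and Egr4 encode zinc finger factors, Nr4a1 and Nr4a3 encode orphan nuclear receptors, and Arc encodes a protein that takes part in the removal of AMPA receptors from synapses. Samples collected at 12 hours lie late against this time course.

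Promoters of 7 of the 10 genes were in the RefSeq table used here, as 250 bases before and 50 bases after the annotated start on the GRCr8 assembly. Fos, Nr4a3 and Arc were not among them. The stretches shown are the 150 bases before the start of the EGR genes and Nr4a1. Egr1, Egr4 and Nr4a1 were picked for a probe set whose Gpc4 arrays read higher than the 4 others. This also holds for Fosb and Junb, which are not shown. Egr2 has no such probe set, and both of its probe sets lie below the array medians. Any link between motifs and values was not tested. Capitals mark matches to the CArG box, the CRE half-site (TGACG or CGTCA), the EGR site (GCGNGGGCG or CGCCCNCGC) and the TATA box (TATATAA or TATAAA), each searched on both strands except the TATA box. Egr1 lies at chr18:26736928-26737077 on the plus strand, Egr2 at chr20:21054442-21054591 on the minus strand, Egr4 at chr4:119607818-119607967 on the minus strand and Nr4a1 at chr7:134259988-134260137 on the plus strand.
Egr1: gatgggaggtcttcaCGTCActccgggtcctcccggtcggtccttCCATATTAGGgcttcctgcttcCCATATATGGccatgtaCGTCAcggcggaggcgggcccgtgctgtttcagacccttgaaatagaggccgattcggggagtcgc
Egr2: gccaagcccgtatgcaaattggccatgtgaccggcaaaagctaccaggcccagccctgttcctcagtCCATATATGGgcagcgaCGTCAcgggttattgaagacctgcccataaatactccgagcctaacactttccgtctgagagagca
Egr4: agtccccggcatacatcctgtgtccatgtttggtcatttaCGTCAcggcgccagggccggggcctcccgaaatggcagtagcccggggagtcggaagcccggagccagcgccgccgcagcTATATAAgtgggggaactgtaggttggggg
Nr4a1: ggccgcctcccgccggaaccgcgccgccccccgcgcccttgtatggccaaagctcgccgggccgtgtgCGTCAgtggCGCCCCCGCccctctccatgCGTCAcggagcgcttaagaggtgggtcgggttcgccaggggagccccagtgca

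Egr1 held a CArG box at 105 and at 83 bases before the start, and Egr2 held 1 at 83 bases before it. These were the only 2 of the 7 promoters with a CArG box, which is found in 1.64% of the 33469 promoters of the table. In Egr1 and Egr2 a CRE half-site followed at 66 bases before the start. A CRE half-site was present in 5 of the 7 (Junb, Egr1, Egr2, Egr4 and Nr4a1), against 21.2% of all promoters, and Nr4a1 held 4 of them. The full CRE (TGACGTCA, which contains the half-site) was in 0 of the 7 (1.83% of all), and the AP-1 site (TGACTCA or TGAGTCA) was in 0 of the 7 (4.63% of all). An EGR site was found in Nr4a1, 73 bases before the start (4.98% of all), and a TATA box in Junb, Egr4 and Npas4 (10.2% of all). The Fosb promoter held none of the motifs searched. A match is a description of the letters in this window and not a bound site.

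**Figure D1:**
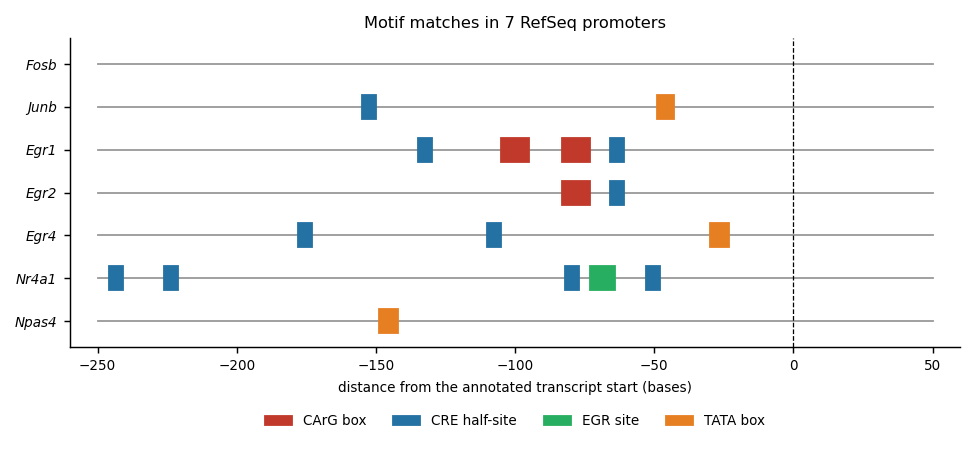
Motif matches in the promoters of 7 immediate early genes, by distance in bases from the annotated transcript start (dashed line). Each grey line is 1 promoter from 250 bases before to 50 bases after the start, and boxes are matches drawn at their length. CArG boxes (red) occur in Egr1 and Egr2, and CRE half-sites (blue) in Junb, Egr1, Egr2, Egr4 and Nr4a1.

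The first question was whether Gpc4 left these genes at a different level from Alone after 12 hours. Most of the 14 probe sets read higher with Gpc4, but none passed the test across all probe sets. The log2 difference ranged from -0.12 for one Egr4 probe set to 0.77 for Fosb, with a median of 0.24, against a median of -0.005 over all probe sets. Both Gpc4 arrays lay above both Alone arrays for 10 of the 14, against 16.0% of all probe sets, and below for 1 of the 14, against 18.9%. At an adjusted p under 0.05 from limma, 0 of 14 were called, against 0.0838% of all probe sets (26 of 31042, all higher). At an unadjusted p under 0.05 from limma 7 of 14 probe sets of 6 genes were past it, all higher, against 6.88% of all. Of these 7, Fosb, Nr4a3 1369067_at and Nr4a3 1393389_at lay below the array medians throughout, and the others lay above them. The methods name a t-test for pairwise comparisons in general and no test for the arrays. This t-test of the methods gave 4 at an unadjusted p of at most 0.05 and 0 after adjustment.

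**Figure D2:**
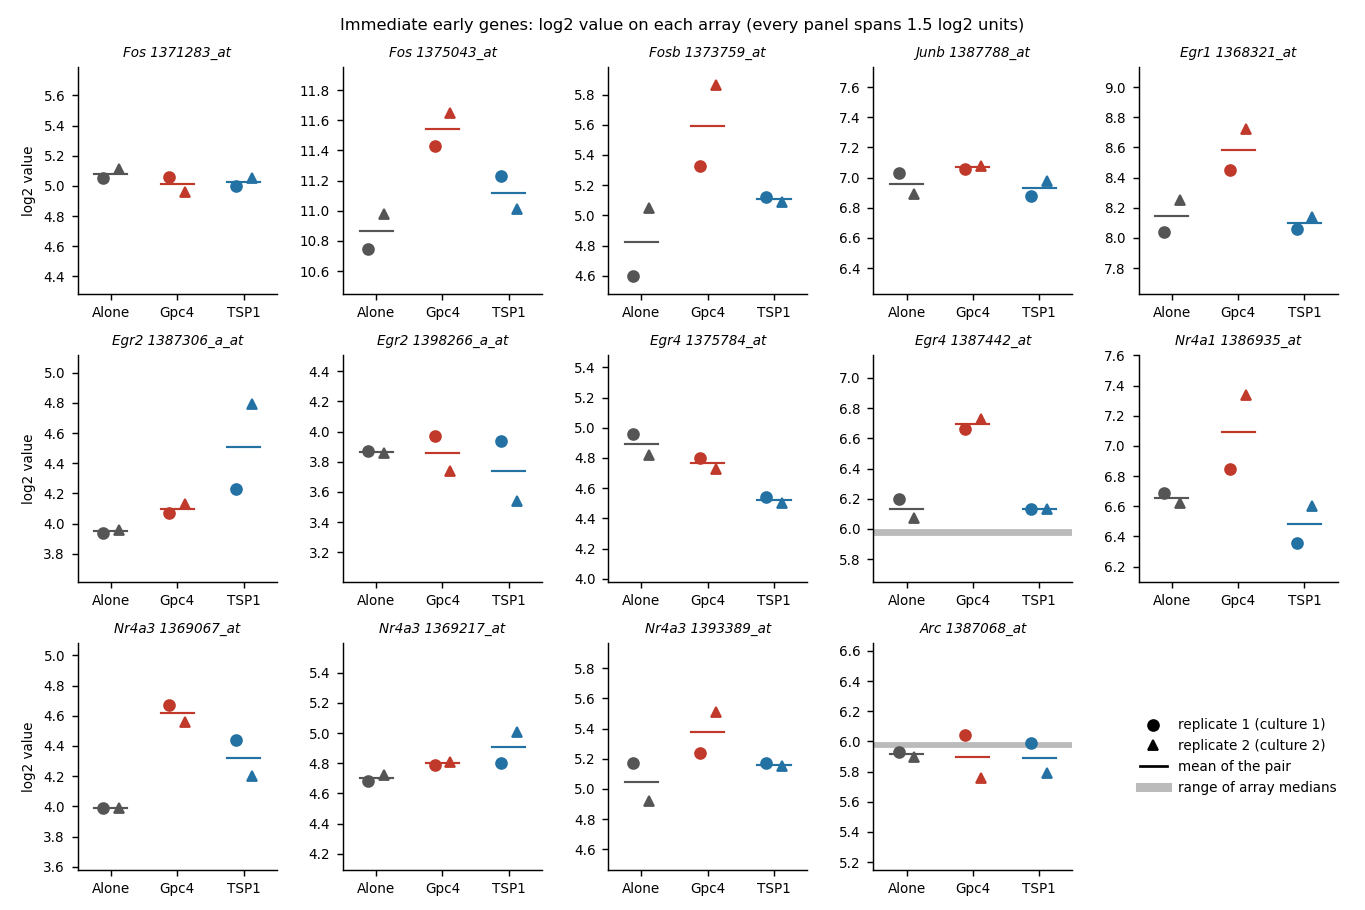
Log2 value of each of the 14 probe sets on each of the 6 arrays. Circles are replicate 1, triangles are replicate 2, bars are the mean of the pair, and the grey band is the range of the array medians where it falls in the panel. Every panel spans 1.5 log2 units. Both Gpc4 arrays lie above the 4 others for Fos 1375043_at, Fosb, Junb, Egr1, Egr4 1387442_at, Nr4a1, Nr4a3 1369067_at and Nr4a3 1393389_at.

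Of the AP-1 genes, Fos was read by a bright and a dim probe set. For 1375043_at the Alone arrays read 10.75 and 10.98, the Gpc4 arrays 11.43 and 11.65 and the TSP1 arrays 11.23 and 11.01, in the order of the cultures. The Gpc4 arrays were the 2 highest. The log2 difference from Alone was 0.67 (95% interval 0.38 to 0.97, 1.60-fold), with 0.68 and 0.67 in the cultures, and an adjusted p of 0.26 from limma. The other Fos probe set, 1371283_at, lay below the median on all 6 arrays, between 4.96 and 5.11, and its groups overlapped (difference -0.07, interval -0.28 to 0.14). The pair of probe sets therefore did not give the same reading of Fos.

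Fosb, which encodes a partner of Jun proteins with a long-lived splice form in chronically stimulated neurons, had the largest difference of the 14. Its Alone values were 4.60 and 5.05, its Gpc4 values 5.33 and 5.86 and its TSP1 values 5.12 and 5.09, all below the array medians. The log2 difference between Gpc4 and Alone was 0.77 (interval 0.31 to 1.23), with 0.73 and 0.81 in the cultures, and its adjusted p was 0.49 from limma. Junb, the AP-1 subunit that dimerizes with Fos proteins, read 7.03 and 6.89 in Alone, 7.06 and 7.08 with Gpc4 and 6.88 and 6.98 with TSP1. Its Gpc4 arrays were the highest by a narrow margin, and the difference from Alone of 0.11 was within the interval of -0.11 to 0.33.

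Among the EGR factors, Egr1, a widely used marker of neuronal activity, read 8.04 and 8.25 in Alone, 8.45 and 8.72 with Gpc4, and 8.06 and 8.14 with TSP1. Both Gpc4 arrays exceeded the 4 others, and TSP1 and Alone overlapped. The log2 difference between Gpc4 and Alone was 0.44 (interval 0.16 to 0.72, 1.36-fold), with 0.41 and 0.47 in the cultures (adjusted p = 0.55 from limma).

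Egr4, an EGR factor enriched in neurons, gave different readings from its 2 probe sets. For 1387442_at the values were 6.20 and 6.07 in Alone, 6.66 and 6.73 with Gpc4, and 6.13 and 6.13 with TSP1. The log2 difference between Gpc4 and Alone was 0.56 (interval 0.35 to 0.77, 1.47-fold), with 0.46 and 0.66 in the cultures. It had the lowest adjusted p of the 14, 0.16 from limma, and it was the only one that reached an adjusted p under 0.05 under any alternative tried: with the culture as a replicate block and probe sets below a mean log2 value of 6 left out, its adjusted p was 0.038 against Alone and 0.032 against TSP1. For 1375784_at, below the array medians throughout, the values were 4.96 and 4.82 in Alone, 4.80 and 4.73 with Gpc4 and 4.54 and 4.50 with TSP1. Here Alone was highest and TSP1 lowest with no overlap between the groups, and the difference between Gpc4 and Alone was -0.12 (interval -0.34 to 0.09).

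Egr2, known for its part in hindbrain patterning and myelination as well as in neuronal activity, lay below the array medians for both probe sets. Probe set 1387306_a_at read 3.94 and 3.96 in Alone, 4.07 and 4.13 with Gpc4, and 4.23 and 4.79 with TSP1. It was the one probe set of the 14 whose highest values were on both TSP1 arrays with a difference from Alone past an unadjusted p of 0.05. The other, 1398266_a_at, lay between 3.54 and 3.97 with overlapping groups. The difference between Gpc4 and Alone was 0.15 (interval -0.24 to 0.54) for the former and -0.01 (interval -0.34 to 0.32) for the latter.

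Of the NR4A receptors, Nr4a1 read 6.69 and 6.62 in Alone, 6.85 and 7.34 with Gpc4, and 6.36 and 6.60 with TSP1. The order was Gpc4, Alone, TSP1 with no overlap, but the cultures differed in the size of the Gpc4 difference, 0.16 in culture 1 and 0.72 in culture 2 (mean 0.44, interval 0.06 to 0.82, adjusted p = 0.69 from limma). Nr4a3 has 3 probe sets, all below the array medians. For 1369067_at both Alone arrays read 3.99, the Gpc4 arrays 4.67 and 4.56 and the TSP1 arrays 4.44 and 4.20, so both treated groups lay above Alone. Its log2 difference between Gpc4 and Alone was 0.62 (interval 0.38 to 0.87), with 0.68 and 0.57 in the cultures (adjusted p = 0.18 from limma, 0.073 with the block). The other Nr4a3 probe sets were higher with Gpc4 in both cultures too, by 0.10 (interval -0.13 to 0.33) for 1369217_at and 0.33 (interval 0.04 to 0.62) for 1393389_at. For the first of these the TSP1 arrays, at 4.80 and 5.01, overlapped the Gpc4 arrays, at 4.79 and 4.81.

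Arc, the effector of the set, read 5.93 and 5.90 in Alone, 6.04 and 5.76 with Gpc4, and 5.99 and 5.79 with TSP1. The groups overlapped in every comparison. The interval of the difference from Alone was -0.30 to 0.27 with Gpc4 and -0.31 to 0.26 with TSP1, so a difference past 1.5-fold (0.58 on the log2 scale) lies outside both intervals, on values near the array median.

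**Figure D3:**
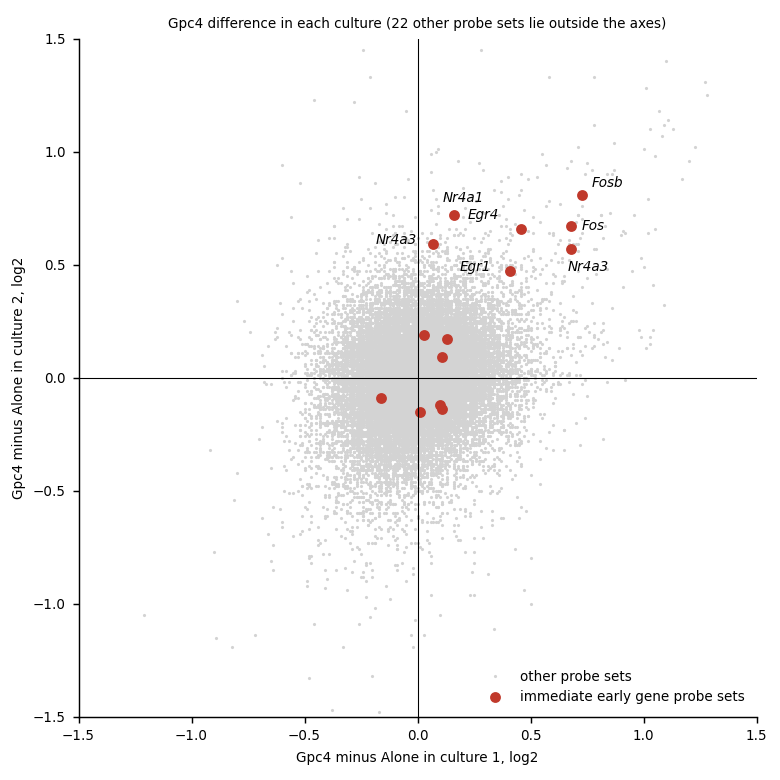
Log2 difference between Gpc4 and Alone in culture 1 (horizontal) and culture 2 (vertical) for all 31042 probe sets (grey) and the 14 of the immediate early genes (red); 22 other probe sets lie outside the axes. Fos (0.68 and 0.67), Fosb (0.73 and 0.81), Nr4a3 1369067_at (0.68 and 0.57), Egr4 1387442_at (0.46 and 0.66) and Egr1 (0.41 and 0.47) are higher in both cultures, and Nr4a1 and Nr4a3 1393389_at mainly in culture 2.

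The second question was whether TSP1, which was added for the same 12 hours, gave a difference from Alone. It gave no called difference for any of the 14 (limma, adjusted p of 0.98 to 0.99), against 0% of all probe sets called, and the median log2 difference was near 0 (-0.37 to 0.56), as it was over all probe sets (-0.005). At an unadjusted p under 0.05 from limma 3 of the 14 were past it, against 4.40% of all. Egr2 1387306_a_at was higher by 0.56 (interval 0.17 to 0.95), with 0.29 and 0.83 in the cultures, Nr4a3 1369067_at was higher by 0.33 (interval 0.08 to 0.58), and Egr4 1375784_at was lower, with a log2 difference of -0.37 (interval -0.58 to -0.16). All 3 lie below the array medians. TSP1 arrays lay above both Alone arrays for 5 of the 14, against 14.3% of all probe sets, and below for 2 of the 14, against 15.6%. The t-test of the methods gave 1 at an unadjusted p of at most 0.05 and 0 after adjustment.

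For the genes with the larger Gpc4 differences, TSP1 was close to Alone or between the groups. Fos 1375043_at was higher with TSP1 by 0.48 in culture 1 and 0.03 in culture 2, and Fosb by 0.52 and 0.04, so nearly all of their TSP1 difference came from culture 1. Egr1 had a TSP1 difference within an interval of -0.33 to 0.24, and Egr4 1387442_at within -0.21 to 0.20. Nr4a1 was at or below Alone with TSP1 in both cultures, by -0.33 and -0.02.

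The direct comparison of the treatments asked whether Gpc4 and TSP1 differed from each other. It shares the Gpc4 arrays with the first comparison and the TSP1 arrays with the second, so the 3 are not independent. At an adjusted p under 0.05 from limma 0 of 14 passed, against 0.0612% of all probe sets. At an unadjusted p under 0.05 from limma 8 of 14 probe sets of 7 genes were past it, 7 of them higher with Gpc4, against 4.51% of all; the t-test of the methods gave 2 and, after adjustment, 0. The Gpc4 arrays lay above the TSP1 arrays for 9 of the 14, against 14.6% of all, and below for 1 of the 14 (Egr2 1387306_a_at), against 15.5%.

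Nr4a1 had the largest of these differences, 0.62 on the log2 scale (interval 0.24 to 0.99), with 0.49 and 0.74 in the cultures. Egr4 1387442_at differed by 0.56 (interval 0.35 to 0.78), with 0.53 and 0.60, and Egr1 by 0.48 (interval 0.20 to 0.77), with 0.39 and 0.58. In these 3, as in Fosb and Fos 1375043_at, the Gpc4 group was higher in both cultures than TSP1. Fosb differed by 0.49 (interval 0.03 to 0.95) and Fos 1375043_at by 0.42 (interval 0.12 to 0.72), with 0.21 and 0.77 in the cultures for Fosb and 0.20 and 0.64 for Fos. Egr4 1375784_at, whose Gpc4 arrays were lower than Alone, was higher than TSP1 by 0.24 (interval 0.03 to 0.46). Nr4a3 1369067_at was higher by 0.295 (interval 0.05 to 0.54), with 0.23 and 0.36 in the cultures. Egr2 1387306_a_at was lower with Gpc4, with a difference of -0.41 (interval -0.80 to -0.02) and -0.16 and -0.66 in the cultures.

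**Figure D4:**
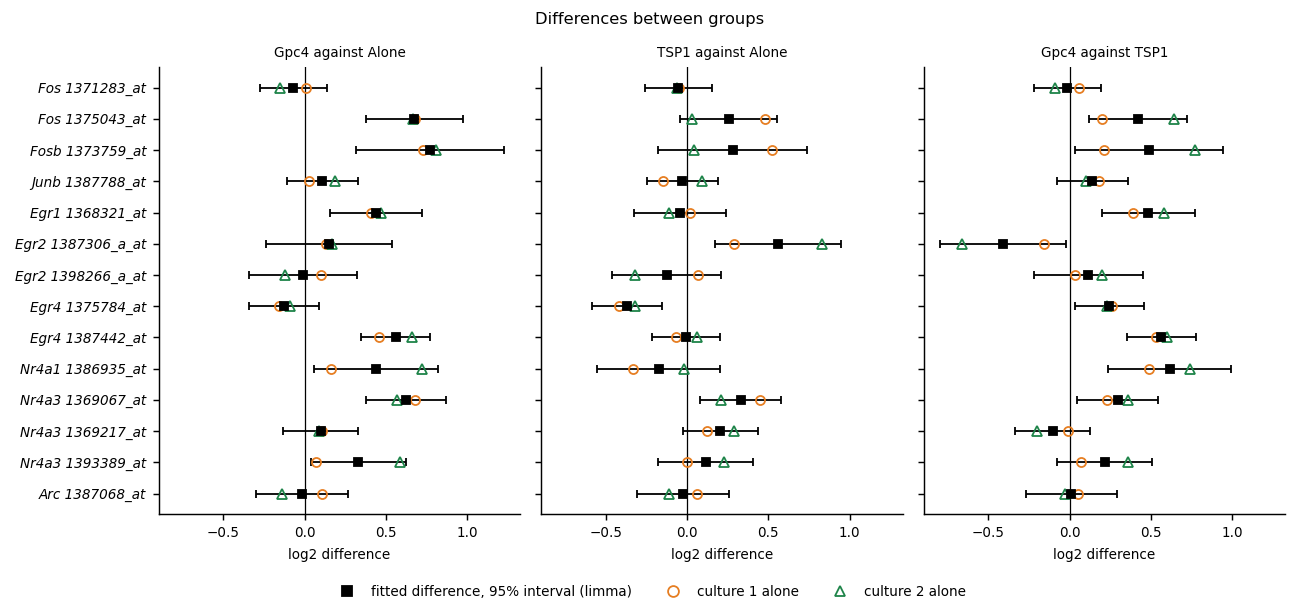
Log2 differences of the 14 probe sets in the 3 comparisons. Squares are the fitted difference with its 95% interval from limma, open circles are the difference in culture 1 and open triangles that in culture 2. Against Alone the intervals of Fos 1375043_at, Fosb, Egr1, Egr4 1387442_at, Nr4a1, Nr4a3 1369067_at and Nr4a3 1393389_at lie above 0 with Gpc4, and those of Egr2 1387306_a_at and Nr4a3 1369067_at with TSP1.

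The replicate number, taken to mark the culture, was also used as a block. With it 0 of the 14 passed in each of the 3 comparisons as well. Of all probe sets, 0.206% passed for Gpc4 and Alone, 0.0129% for TSP1 and Alone and 0.258% for Gpc4 and TSP1. The lowest adjusted p of a member with the block was 0.073, for Nr4a3 1369067_at with Gpc4. The culture itself was compared too, as replicate 2 against replicate 1 at matched treatment. None of the 14 passed (limma, adjusted p of 0.36 or more), against 0.561% of all, and 3 of 14 were past an unadjusted p of 0.05, against 11.3% of all. Fosb was higher in culture 2 by 0.32 (interval 0.06 to 0.58), Egr1 by 0.19 (interval 0.01 to 0.36), and Egr2 1398266_a_at had a difference of -0.21 (interval -0.42 to -0.01). Replicate arrays of a group differed by a median of 0.10 in Alone, 0.17 in Gpc4 and 0.15 in TSP1 over the 14 probe sets, and by 0.10 to 0.11 over all probe sets.

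Other genes of the activity response were read from lists named beside this set, with 1 probe set a gene. In the list of other immediate early transcription factors 16 of 17 genes were measured, and 0 passed without the block in the 3 comparisons of treatments. With the block, 1 was higher and 1 lower in Gpc4 against Alone (0.206% of all probe sets called). The same was found against TSP1 (0.258%). Klf10, a zinc finger factor induced by TGF-beta, was higher by 1.14 on the log2 scale than in Alone (7.49 and 7.72 in Alone, 8.50 and 9.00 with Gpc4, adjusted p = 0.0093 from limma with the block and 0.10 without). It was also higher than TSP1, by 0.87 (adjusted p = 0.026 with the block). Atf3, a stress-induced factor, had a log2 difference from Alone of -1.01 (9.02 and 9.35 in Alone, 8.20 and 8.16 with Gpc4, adjusted p = 0.022 with the block and 0.068 without). Against TSP1 its difference was -0.97 (adjusted p = 0.020 with the block). Both genes had Gpc4 arrays apart from the 4 others. Egr3, the remaining EGR factor, had a difference of 0.00 between Gpc4 and Alone with overlapping groups, and Nr4a2, the remaining NR4A receptor, 0.57 (5.34 and 5.86 in Alone, 6.35 and 5.99 with Gpc4, adjusted p = 0.67 from limma). At an unadjusted p under 0.05 from limma 7 of the 16 were past it for Gpc4 and Alone (6.88% of all probe sets), 0 for TSP1 and Alone (4.40%) and 5 for Gpc4 and TSP1 (4.51%). The median difference between Gpc4 and Alone of the 16 was 0.005, against -0.005 over all probe sets. With TSP1 the largest differences from Alone of 1 sign in both cultures were 0.28 for Klf10 and 0.27 for Nr4a2, and between the cultures 0.30 for Klf10 and 0.23 for Maff, a small MAF factor, none of them called.

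Of the other immediate early effectors 13 of 14 were measured, with 0 called without the block in the comparisons of treatments. With the block 1 was called in Gpc4 against Alone (0.206% of all probe sets) and 1 against TSP1 (0.258%). The unadjusted p from limma was under 0.05 for 4 of the 13 for Gpc4 and Alone (6.88% of all probe sets). It was under 0.05 for 2 for TSP1 and Alone (4.40%) and 4 for Gpc4 and TSP1 (4.51%). Dusp1, a phosphatase that inactivates MAP kinases, read 10.17 and 10.60 in Alone, 11.34 and 11.48 with Gpc4 and 10.07 and 10.55 with TSP1. With the block it was higher by 1.02 on the log2 scale against Alone (adjusted p = 0.018, 0.23 without) and by 1.10 against TSP1 (adjusted p = 0.0100, 0.22 without). Ier3, an immediate early gene linked to cell survival, was next with a log2 difference of 0.75 against Alone (adjusted p = 0.060 with the block). With TSP1 the largest differences from Alone were 0.33 for Zfp36, which encodes an mRNA-destabilizing protein, and 0.31 for Ier3, neither called. Ptgs2, which encodes cyclooxygenase 2, varied by culture more than by treatment, with a log2 difference between replicate 2 and replicate 1 of 1.06 (adjusted p = 0.051). Trib1 was the one gene of this list called between the cultures, with a difference of -0.54 (adjusted p = 0.045 from limma).

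Genes listed as late activity-response genes gave 0 of 9 measured called without the block. With it 1 was called in Gpc4 against Alone (0.206% of all probe sets) and 1 against TSP1 (0.258%). Both calls are Nptx1, which the authors had reported as raised by Gpc4 on these same arrays. Arrays from 1 time point do not show an order in time. The unadjusted p from limma was under 0.05 for 4 of the 9 for Gpc4 and Alone (6.88% of all probe sets). It was under 0.05 for 0 for TSP1 and Alone (4.40%) and 4 for Gpc4 and TSP1 (4.51%). Nptx1, which encodes neuronal pentraxin 1, a secreted protein that clusters AMPA receptors, read 11.32 and 11.29 in Alone, 12.18 and 12.19 with Gpc4 and 11.40 and 11.05 with TSP1. The log2 difference was 0.88 against Alone (adjusted p = 0.033 from limma with the block and 0.079 without) and 0.96 against TSP1 (0.021 and 0.068). Inhba, which encodes an activin subunit, had a difference of -0.42 against Alone (adjusted p = 0.30 from limma), and Bdnf, a growth factor that is also in the medium, -0.21 (interval -0.42 to -0.01). With TSP1 Bdnf differed from Alone by 0.15, and between the cultures Adcyap1 and Nrn1 had differences of -0.17 and -0.15, none of them called.

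Of the upstream regulators, which include Srf, Elk1, Creb1 and Mef2 factors, 14 of 17 were measured. None was called with or without the block in the 3 comparisons of treatments (limma). Of these regulators, 2 had an unadjusted p under 0.05 from limma for Gpc4 and Alone (6.88% of all probe sets). None of them had one for TSP1 and Alone (4.40%) or Gpc4 and TSP1 (4.51%). Their largest differences between Gpc4 and Alone of 1 sign in both cultures were -0.27 for Camk2a, a calcium-dependent kinase, and -0.23 for Mrtfa, an SRF coactivator. With TSP1 they were 0.18 for Atf1 and 0.15 for Elk4, and between the cultures -0.26 for Rps6ka5 and -0.19 for Mef2c, none of them called. The EGR corepressors Nab1 and Nab2, which bind EGR proteins and are themselves induced by them, had 0 called and 0 at an unadjusted p under 0.05 (limma), with differences between Gpc4 and TSP1 of -0.21 for Nab1 and 0.20 for Nab2.

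**Figure D5:**
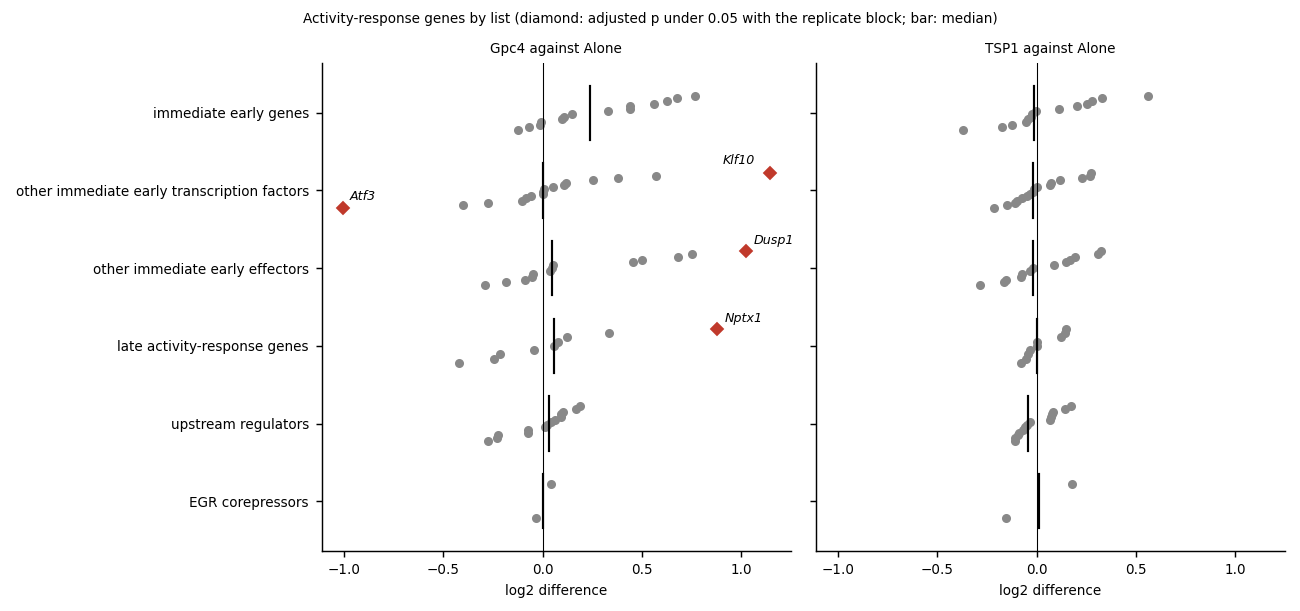
Log2 differences from Alone with Gpc4 (left) and TSP1 (right) for the 14 immediate early probe sets and for 1 probe set per gene of the 5 other lists of the activity response. Each dot is a gene or probe set, bars are medians and red diamonds have an adjusted p under 0.05 with the replicate block. With Gpc4 these are Klf10, Atf3, Dusp1 and Nptx1, and with TSP1 there are 0.

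Of the marker lists of other cell types, those of glia and endothelium did not overlap between Gpc4 and Alone in their summed level, and those of microglia, fibroblasts and other retinal neurons did. The glial and endothelial sums did not overlap between TSP1 and Alone either, with the glial sum higher and the endothelial sum lower with TSP1. By single marker, Gpc4 lay apart from Alone for 2 glial markers higher and 1 lower. For endothelium this was 1 higher and 1 lower. Over all probe sets 16.0% lay apart higher and 18.9% lower. The summed linear value of the 6 measured markers of astrocytes and Muller glia was 1158 and 1310 in Alone, 1548 and 1532 with Gpc4, and 1461 and 1386 with TSP1. That of the 4 endothelial markers was 162 to 207 in Alone, 279 to 301 with Gpc4 and 156 to 157 with TSP1, carried by Kdr (7.86 and 8.00 with Gpc4, against 6.84 and 7.36 in Alone). Of these, 2 or 3 of the 6 glial markers and 1 of the 4 endothelial markers lay above the median of each array. Those of RGCs lay between 60034 and 61665 on all 6 arrays. The 4 markers of other retinal neurons summed to 403 to 474 on all 6 arrays. By culture, the 6 fibroblast markers summed to 288 to 419 in replicate 1 and 503 to 832 in replicate 2, and the 6 microglia markers to 285 to 329 in replicate 1 and 214 to 236 in replicate 2. None of these marker lists had a gene past the threshold between Gpc4 and Alone, with or without the block. Against TSP1, Kdr, Dcn and Lum were higher with Gpc4 with the block (adjusted p of 0.017, 0.026 and 0.0086), and between the cultures Dcn, Lum and the GABAergic marker Gad1 were higher and C1qa lower in replicate 2 (log2 differences of 1.54, 1.79, 0.61 and -0.99). Their part in the differences of the immediate early genes was not tested.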

How the data were processed

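RNA from RGC cultures was measured on 6 Affymetrix rat genome arrays. The authors processed the scans in Affymetrix Expression Console, whose version is not given in the sources used here. The deposited values are log2 expression values per probe set, already normalized between arrays and rounded to 2 decimals, so differences near 0.01 are blurred. No further normalization or filter was applied.

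Groups were compared in R 4.3.3 with limma 3.58.1. Its lmFit and eBayes were given all 6 arrays with a mean for each group, which leaves 3 residual degrees of freedom, and the test was two-sided, with Benjamini-Hochberg adjustment over 31042 probe sets and a threshold of an adjusted p under 0.05. Arrays with the same replicate number were taken to share a culture, as the methods describe separate cultures. The labels give the replicate number alone. Over all probe sets, their deviations from the means of Alone and Gpc4, of Alone and TSP1 and of Gpc4 and TSP1 correlated at 0.29, 0.35 and 0.37. Over the member probe sets these correlations were 0.40, -0.06 and 0.36. Whether they come from a shared culture or from shared handling of the arrays was not tested. The fit with this number as a block, which takes out a shift shared by its arrays, was an alternative with 2 residual degrees of freedom. The other alternatives were quantile normalization, median centring, a filter that keeps mean log2 values of 6 and above, and this filter with the block. The 2 compared groups alone, a trended variance, other thresholds, averaging a gene's probe sets and leaving out each array were also tried. The last was the t-test that the methods name for pairwise comparisons, without naming a test for the arrays. It could not be computed for 24 to 29 probe sets whose rounded values had no spread. The number of arrays limits the precision.

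Symbols came from the platform annotation, in which 20826 probe sets have 1 symbol, 436 several and 9780 none. All 14 probe sets of the members matched a symbol in the RefSeq gene table. The members and lists were chosen with earlier results of these data known. Every member was named with all its probe sets. Of the 11 other lists, the genes past the threshold with or without the block were named, and in the lists of the activity response also up to 2 genes per list and comparison with the largest log2 difference of 1 sign in both replicates, with the probe set of highest mean. Egr3, Nr4a2 and Bdnf against Alone were named as family members or medium components after their values were seen. Genes of these lists without a probe set of 1 symbol were not analysed here, among them Btg2, Arl4d, Nptx2, Pcsk1 and Gpr3, and Mkl1 is listed as Mrtfa. Promoters were RefSeq sequences of GRCr8, and a TATA box was searched on the sense strand alone. Python 3.11.15 and matplotlib 3.10.9 were used for tables and figures.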

Additional observations from a re-analysis of the deposited data

How the results depend on the processing

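None of the 14 member probe sets was called in any comparison at an adjusted p under 0.05. This held with quantile normalization, median centring and the filter that keeps mean log2 values of 6 and above. It also held with a fit of the 2 compared groups, a trended variance, a gene's probe sets averaged and the replicate block. The main fit also called none at an adjusted p under 0.10, but alternatives brought some below 0.10 in Gpc4 against Alone. Among them, by limma, were Egr4 1387442_at with the filter (0.075) and Nr4a3 1369067_at with the block (0.073). Fos 1375043_at was another, with a trended variance (0.069). At an adjusted p under 0.05 the exception was the replicate block with that filter. There 1 of the 14 probe sets, Egr4 1387442_at, passed in Gpc4 against Alone. It passed in Gpc4 against TSP1 as well, and the cause was not tested. The replicate block alone changed no call of the 14. At an unadjusted p under 0.05 from limma 7, 3 and 8 were past it for Gpc4 and Alone, TSP1 and Alone, and Gpc4 and TSP1 in turn, and by the methods' t-test 4, 1 and 2. The methods' t-test called 0 of the 14 after adjustment.

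Over all probe sets the counts moved more. For Gpc4 against Alone, 26 became 64 with the replicate block, 90 with the block and the filter, 13 with the 2 groups compared, 49 with a trended variance, 1704 by the methods' t-test unadjusted and 0 by it after adjustment, 46 at an adjusted p under 0.10 and 2136 at an unadjusted p from limma. For TSP1 against Alone, 0 became 4 with the block, 8 with the block and the filter, 1280 with the methods' t-test unadjusted and 1367 with an unadjusted p from limma. For Gpc4 against TSP1, 19 became 31 with the filter, 80 with the block, 100 with both, 39 with a trended variance, 1433 and 0 by the methods' t-test before and after adjustment, 37 at an adjusted p under 0.10 and 1401 at an unadjusted p from limma. Without each array in turn the counts were 2 to 13, 0 to 1 and 2 to 13, where a lone array is taken to vary like the other groups. For replicate 2 against replicate 1, 174 became 0 without the Alone, the Gpc4 or the TSP1 arrays. The cause of these changes in the counts was not tested.

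The sign of the log2 difference turned only for values that were not called and lay near 0. Without each array in turn, the difference between Gpc4 and Alone ranged from -0.125 to 0.105 for Egr2 1398266_a_at and from -0.155 to 0.125 for Arc. That between TSP1 and Alone ranged from -0.07 to 0.06 for Egr4 1387442_at, -0.10 to 0.04 for Junb, -0.15 to 0.06 for Egr1, -0.01 to 0.24 for Nr4a3 1393389_at, -0.325 to 0.075 for Egr2 1398266_a_at and -0.125 to 0.075 for Arc. That between Gpc4 and TSP1 ranged from -0.13 to 0.15 for Arc, -0.065 to 0.035 for Fos 1371283_at and -0.085 to 0.315 for Egr2 1398266_a_at. Median centring and quantile normalization turned Egr4 1387442_at for TSP1 against Alone to 0.005 and 0.0021, and Arc for Gpc4 against TSP1 to -0.005 and -0.0042. Between the cultures, Fos 1371283_at turned to -0.025 without the Alone arrays and -0.02 without the TSP1 arrays, and without the Alone arrays Junb turned to 0.06 and Egr4 1387442_at to 0.035.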
